A study of Microhyla fissipes with 12 samples.

Results

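A group of 79 unigenes had low values in dorsal muscle of the frog Microhyla fissipes at stage 43 of metamorphosis and higher values in every library taken before and after it. The study sequenced messenger RNA of dorsal muscle from tadpoles fed spirulina powder, at stages 36, 40, 43 and 45, named S36, S40, S43 and S45, with 3 libraries per stage that the series calls biological replicates. The labels name no genotype, treatment or animal age, and they do not say how many animals went into a library. The deposited table lists 468578 unigenes, the transcript groups of an assembly, in FPKM, a number of fragments corrected for the length of the unigene and the size of the library. A unigene belonged to the group when its lowest FPKM over the 9 libraries of S36, S40 and S45 was at least 5 and at least 2 times its highest FPKM over the 3 libraries of S43. The members were thus chosen by the measured difference between S43 and the other stages. That difference is described here and not tested.

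Metamorphosis in frogs is driven by thyroid hormone, and its climax is the period in which tadpole organs are lost or rebuilt. In the dorsal body muscle of Xenopus laevis, larval fibres are lost and adult fibres form in their place, while the tail muscle degenerates. In whole tissue, fewer cells of a type and less RNA per cell cannot be told apart. The table names its unigenes by cluster and number and gives no gene names, so no member is tied here to a gene or a function, and the tissue label was not checked against marker genes.

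Some libraries were unusually alike or unlike. S45 replicates 2 and 3 differed by about sampling noise: among unigenes with a mean of 1000 FPKM or more, their log2 ratio had an SD of 0.029, where noise scaled from low values gave 0.020. They entered every stage mean and test as 1 sample, so that S45 had n = 2. S36 replicate 3 and S40 replicate 1, from different stages, had an SD of 0.055 against a noise level of 0.019, and the next closest pair had 0.155. At a mean of 10 to 30 FPKM this SD was 1.5 to 2.0 between S43 libraries and 0.27 to 1.04 within the other stages. There each S43 library was closer to a library of another stage than to its own. Replicate 1 was closest to S40 replicate 3 (1.16), replicate 2 to S36 replicate 1 (0.93) and replicate 3 to S45 replicate 1 (0.82). At 1000 FPKM or more, S43 replicates 1 and 2 were closest to each other (0.279), and S43 replicate 3 to S45 replicate 1 (0.262). S43 replicate 3 and S45 replicate 1 listed 135286 and 140066 unigenes at 1 FPKM or more, against 68062 to 107969 in the other 10 libraries. Total FPKM ran from 1219979 to 1688307 per library, and without read counts the depth behind a value is unknown.

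Of all unigenes, 10460 held at least 5 FPKM in the 9 libraries outside S43, and the 79 members were 0.755% of these. The 10460 unigenes serve below as the reference group. Every S43 library lay below every other library for 584 of the 10460 (5.58%), and by the rule for all 79 members. The ratio of the lowest value outside S43 to the highest value at S43, here the trough ratio, had a median of 0.358 in the reference group. Between ratios of 1.5 and 2 there were 102 unigenes, between 2 and 3 there were 64, between 3 and 5 there were 11, and 4 lay at 5 or more. The same rule with another stage in the place of S43 found 10 unigenes with the low stage at S36, 2 at S40 and 8 at S45, out of 9353, 8404 and 8217 with at least 5 FPKM outside those stages. These counts are no like-for-like background for the 79. With S36 or S40 as the low stage, the alike pair of S36 replicate 3 and S40 replicate 1 must differ by 2 times or more. In all 3 cases the widely spread S43 libraries were among those that had to be high. The reversed rule, with all S43 libraries at 5 FPKM or more and at least 2 times every other library, found 28.

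**Figure D1:**
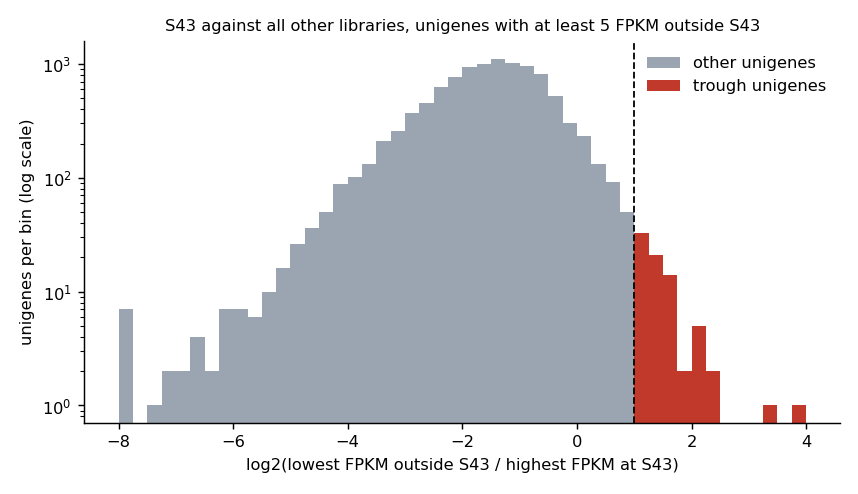
Number of unigenes (log scale) by the log2 ratio of the lowest FPKM outside S43 to the highest FPKM at S43, for the 10460 unigenes with at least 5 FPKM in all 9 libraries outside S43; ratios below the left edge are drawn in the first bar. The 79 members, in red, are the right end of 1 continuous distribution, and the dashed line marks the ratio of 2 that chose them.

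Most members sat close to the floor of the rule. The lowest value outside S43 was between 5 and 10 FPKM for 61 members, between 10 and 20 for 11, between 20 and 50 for 6 and higher for 1. The trough ratio had a median of 2.52 and lay under 2.5 for 37 members. Just inside the ratio of 2 were Cluster-194341.0 at 2.02 and Cluster-199519.152288, also at 2.02, while just outside were Cluster-199519.79535 at 1.98 and Cluster-199519.180694 at 1.98. Just inside the floor of 5 FPKM were Cluster-199519.111505, whose lowest value outside S43 was 5.00, and Cluster-199519.130938 with 5.03. Cluster-199519.90573 with 4.96 and Cluster-199519.116026 with 4.88 lay just outside, with trough ratios of 3.65 and 3.37. A further 444 unigenes had a trough ratio of 2 or more with a lowest value between 1 and 5 FPKM.

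The count of 79 depended on single S43 libraries. It was 207 without S43 replicate 1, 146 without S43 replicate 2 and 416 without S43 replicate 3. Leaving out 1 library of another stage gave 80 to 116, the highest without S36 replicate 1. Leaving out a library can only add members to such a rule, so these counts show which libraries limited it. With median-ratio scaling of the libraries 48 unigenes met the rule, of which 39 were among the 79, and with quantile normalization 86 did, of which 39 were among the 79. After median-ratio scaling all 79 members had every S43 library below every other library, with a lowest trough ratio of 1.19. The rule fixed this outcome in advance. The scaling factors were 0.811 to 1.05 at S43 and 0.841 to 1.40 elsewhere, too alike to undo a ratio of 2. After quantile normalization every S43 library lay below every other library for 78 members, which the choice of members also partly set.

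**Figure D2:**
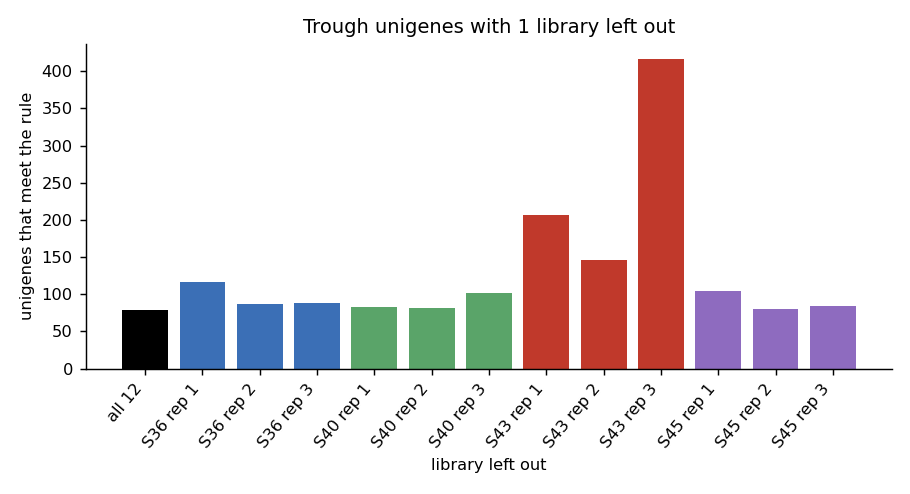
Number of unigenes that meet the rule with all 12 libraries (black) and with each library left out in turn (coloured by stage). The bars for S43 replicates 1, 2 and 3 stand at 207, 146 and 416, above the 79 of all libraries and above the 80 to 116 without a library of another stage.

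The rule placed every member low in each S43 library, so the values below describe only the size of the trough. The median FPKM of the members was 9.32, 13.2 and 9.86 in the S36 libraries and 10.2, 13.7 and 9.01 in the S40 libraries, in replicate order. The S43 libraries had 2.36, 1.66 and 1.95, and the S45 libraries 13.03, 16.7 and 16.9. All S43 medians lay far below the rest, whereas those of S36, S40 and S45 overlapped. The medians of the reference group in the S43 libraries were 17.5, 19.0 and 23.7, within the range of 15.7 to 25.01 of the other stages. Summed over the 79 members, the FPKM was 1091 to 1690 per library at S36 and S40, 172 to 251 at S43 and 1607 to 2140 at S45. The members held 854 to 1303 millionths of total FPKM at S36 and S40, 126 to 177 at S43 and 1012 to 1510 at S45.

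**Figure D3:**
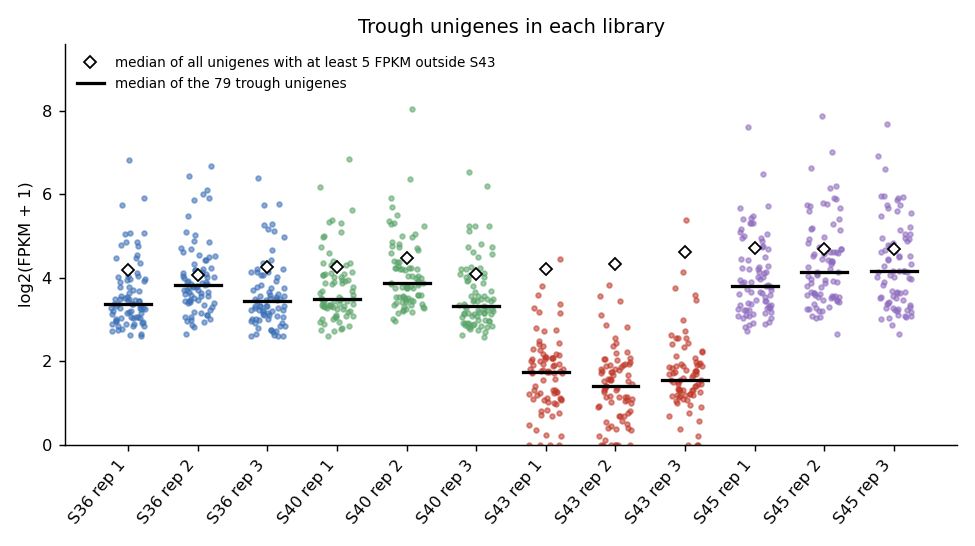
log2(FPKM + 1) of the 79 members in each of 12 libraries (points), with their median (bars) and the median of the 10460 unigenes of the reference group (diamonds). The members' medians are 9.01 to 13.7 FPKM at S36 and S40 and 1.66 to 2.36 FPKM at S43, while the diamonds at S43 stand at 17.5 to 23.7 FPKM.

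At S43 the members were low but mostly not absent. Of the 79, 68 were above 0 in all 3 S43 libraries, 41 had 1 FPKM or more in each of them and 65 stayed under 5 FPKM in each. For the 68, the mean over the 9 libraries outside S43 was 2.89 to 20.5 times the mean at S43, with a median of 5.96. The fold was 4 to 6 for 31 of them, under 4 for 3 and 10 or more for 9. Against S43 alone, their S40 means were 3.18- to 20.6-fold higher (median 5.70) and their S45 means 2.32- to 28.5-fold higher (median 6.36). Another 8 members were listed at 0 in 1 S43 library and 3 in 2 of them, and none in all 3.

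S43 replicate 2 was the lowest of the S43 libraries for 37 members, 46.8%, with ties at 0 given to the first library, against 43.05% of the reference group. S43 replicate 1 was the highest for 42. In the reference group S43 replicate 1 was the highest in 27.4% and S43 replicate 3 in 44.2%, against 53.2% of the members for S43 replicate 1. The rule limited the highest S43 value, so these shares and the ratios below are partly set by the choice of members. Among the 68 members above 0, the highest S43 library was 1.02 to 33.1 times the lowest, with a median of 2.47. The same median was 2.72 for the 10344 unigenes of the reference group above 0 at S43. Within S36 and S40 the members' median ratio of highest to lowest library was 1.71 and 1.69, against 1.73 and 1.52 in the reference group.

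Cluster-194341.0 had the highest mean of all members, 155 FPKM over the libraries outside S43. Its values were 112, 102 and 82.3 FPKM in the S36 libraries, 113, 263 and 91.0 in those of S40, 0, 3.70 and 40.8 in those of S43, and 196, 233 and 206 in those of S45. The S43 libraries ranged from 0 to 40.8, and replicate 3 alone placed this unigene next to the limit of the rule. It is the only unigene of its cluster. The other 78 members belong to Cluster-199519, the largest cluster of the assembly with 224984 unigenes, which also held 99.96% of the reference group.

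Cluster-199519.123125, second in abundance with a mean of 79.3 FPKM outside S43, had 58.7, 63.3 and 53.5 FPKM at S36 and 48.2, 81.0 and 72.9 at S40. It stood at 20.9, 13.1 and 16.7 at S43 and at 89.1, 128 and 119 at S45. Its S43 libraries were closer to each other, and its mean outside S43 was 4.70 times that at S43. Cluster-199519.127339, ninth in abundance and singled out after its values were seen, was the most even member at S43, with 11.04, 10.8 and 10.9 FPKM. It had 32.6, 33.3 and 37.7 at S36, 39.7, 30.8 and 33.9 at S40, and 24.8, 24.7 and 27.4 at S45. Its fold of 2.89 was the smallest among the 68 members above 0, so by this fold the most even low value was also the shallowest. Its trough ratio of 2.23 was not the smallest.

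The largest trough ratios belonged to members with little left at S43, in part because the highest S43 value is the divisor of this ratio. Cluster-199519.92163, with a ratio of 14.9, was listed at 0.39, 0 and 0 FPKM in the S43 libraries. It had 5.83, 12.1 and 10.7 at S36, 13.7, 28.04 and 21.7 at S40, and 38.6, 53.0 and 47.5 at S45, so each stage outside S43 stood above the one before. Cluster-199519.104100, with a ratio of 10.9, had 0.28, 0.33 and 0.60 FPKM at S43. It had 7.37, 7.02 and 10.1 at S36, 6.69, 9.77 and 8.49 at S40, and 6.55, 10.1 and 8.24 at S45. The mean of this unigene was 8.15 ± 1.66 (SD, n = 3) for S36, 8.32 ± 1.55 (n = 3) for S40 and 0.40 ± 0.17 (n = 3) for S43, followed by 7.87 ± 1.86 (n = 2) for S45. The levels before and after the trough overlapped. These deepest troughs came with different courses outside S43.

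**Figure D4:**
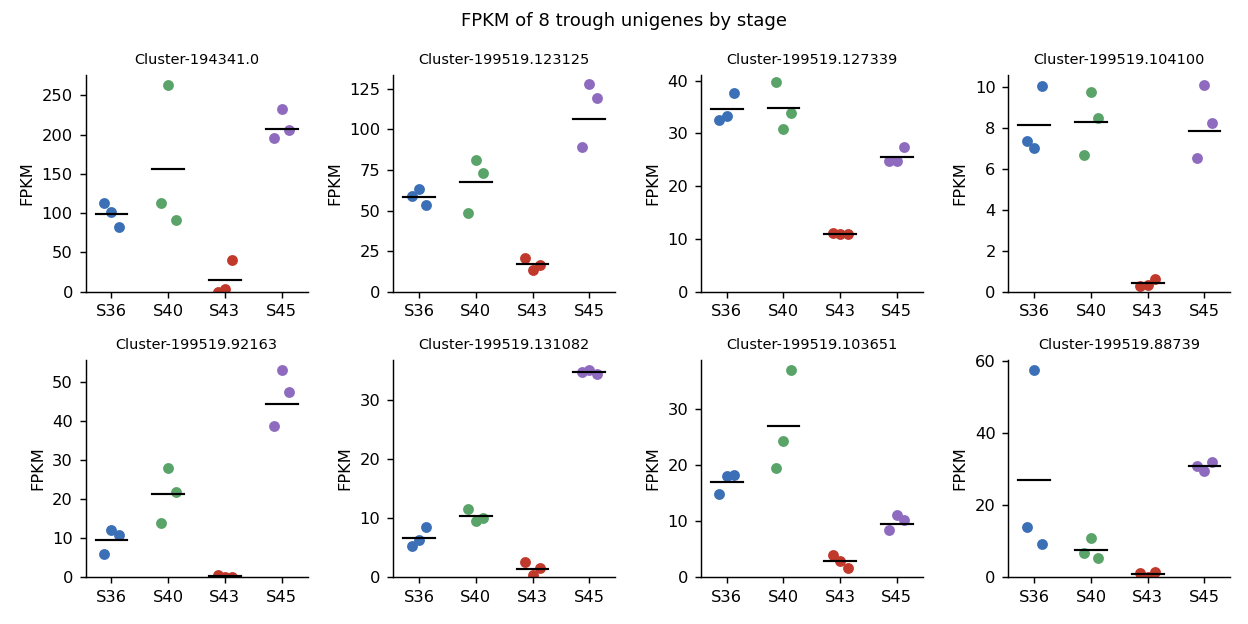
FPKM of 8 members by stage, each library as a point and the stage mean as a bar (S45 replicates 2 and 3 counted as 1 in the mean); each panel has its own scale from 0. All panels have their lowest values at S43, such as 0 to 0.39 FPKM in Cluster-199519.92163, 13.1 to 20.9 in Cluster-199519.123125 and 0 to 40.8 in Cluster-194341.0. The panels differ in the order of S36, S40 and S45.

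The rule did not compare the level after the trough with that before it. It did hold every S36, S40 and S45 value at or above the floor of 5 FPKM or, for the 48 members with more than 2.5 FPKM in an S43 library, at or above a higher limit of 2 times the highest S43 value. The differences between these stages, and the members' shares beside those of the reference group, are therefore partly set by the choice of members. The level at S45 was compared with that before the trough with limma on log2(FPKM + 1) over 123813 unigenes with Benjamini-Hochberg adjustment, and a unigene counted as called when its adjusted p was below 0.05 and its absolute log2 difference 1 or more. All 79 members were tested. Between S45 and S36 limma called 0 of the 79, against 0.709% of all tested unigenes and 1% of the reference group. An unadjusted limma p under 0.05 was found for 14 members, 17.7%, against 23.4% of the reference group, and all 14 were higher at S45. Both measures were at or below the background, and a missed threshold does not show that the levels were equal. The median log2 difference of the members was 0.36, with a range of -0.78 to 2.24, against 0.41 in the reference group and 0.56 over all tested unigenes.

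The direction of that median depended on the scaling. Median-ratio scaling gave -0.22 and quantile normalization -0.29, where the median over all tested unigenes became 0.23 and -0.0063. The median of the reference group under these scalings is not given, so whether the turn of sign is particular to the members cannot be told. How the members' median stood to that of all tested unigenes turned with the filter: without a filter on low values the median over all unigenes was 0.22, below the 0.36 of the members. With median-ratio scaling 3 members were higher and 5 lower at S45 at an unadjusted limma p under 0.05, and with quantile normalization 3 and 7. After adjustment both had 0 calls. The shares of the reference group under these scalings are not given, so these counts cannot be set against a background. In single libraries, all S45 values lay above all S36 values for 29 members, 36.7%, against 41.5% of the reference group. They lay below for 6 members, 7.59%, against 10.7%.

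Between S45 and S40 limma again called 0 members, against 0.384% of all tested unigenes and 0.335% of the reference group. With an unadjusted limma p under 0.05, 6 were higher and 1 lower at S45, 8.86% of the members against 12.1% of the reference group. This count depended on the setting. It was 3 without S40 replicate 3, 17 with the 2 stages alone and 19 with S45 replicates 2 and 3 as separate samples. Median-ratio scaling gave 2 higher and 3 lower, and quantile normalization 2 and 4. The share of the reference group in these settings is not given. The median log2 difference was 0.29, against 0.36 in the reference group, 0.44 over all tested unigenes and 0.18 over all unigenes without the filter. It turned to -0.12 under median-ratio scaling and to -0.24 under quantile normalization, where the median over all tested unigenes was 0.17 and -0.01. The median of the reference group under these scalings is not given. All S45 libraries lay above all S40 libraries for 23 members, 29.1%, against 40.1% of the reference group, and below for 4, 5.06%, against 10.1%.

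The stages before the trough, S40 and S36, were compared in the same way. Limma called 0 members between them, against 0.00162% of all tested unigenes and 0% of the reference group, and 1 member, higher at S40, had an unadjusted limma p under 0.05, 1.27% against 1.61%. The median log2 difference was 0.08, with a range of -1.32 to 1.07, against 0.09 in the reference group. All S40 libraries lay above all S36 libraries for 5 members, 6.33%, against 8.56% of the reference group. They lay below for 0 members, against 3.37%. For 70 of the 79 members, 88.6%, the S40 and S36 means were within 1.5 times of each other, as they were for 79.5% of the reference group. All these comparisons hold S36 replicate 3 and S40 replicate 1, the unusually alike pair from different stages. Without both, limma called 0 members and the median log2 difference was 0.075. At an unadjusted limma p under 0.05, 1 member was then higher and 1 lower at S40. The overlap counts, the ratios of means and the shares of the reference group are not given without them.

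**Figure D5:**
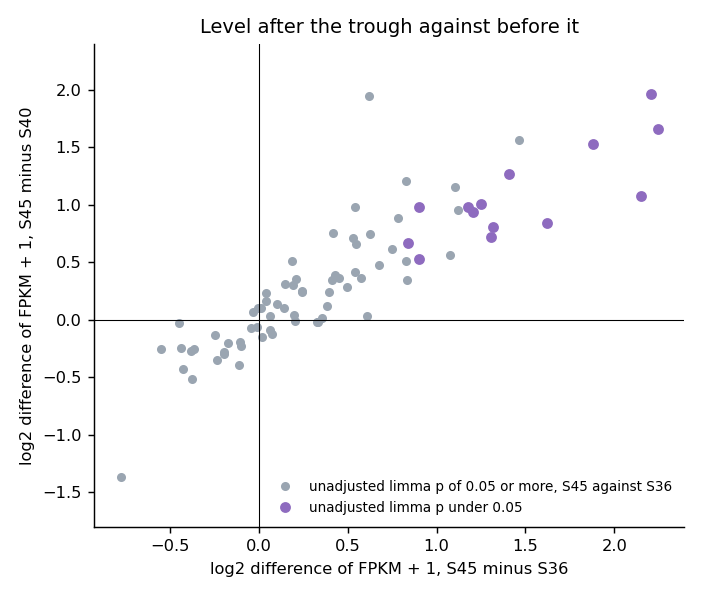
Difference of log2(FPKM + 1) between S45 and S36 (horizontal) and between S45 and S40 (vertical) for the 79 members, from the limma fit; purple points have an unadjusted limma p under 0.05 for S45 against S36. The 14 purple points all lie on the higher side, none passed after adjustment, and both axes share the S45 samples.

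By stage means, members divided into courses that were grouped by their values after these were seen and are given without a test. In 44 members, 55.7%, the means of S36, S40 and S45 were within 1.5 times of each other, against 35.2% of the reference group. These 44 ranged from 6.54 to 52.8 FPKM in mean level outside S43 and from 2.02 to 10.9 in trough ratio. Cluster-199519.121915 was the most even of them, with 10.2, 22.4 and 13.2 FPKM at S36, 14.3, 18.6 and 12.9 at S40, and 9.99, 20.1 and 20.9 at S45. Its S43 libraries had 1.34, 1.55 and 2.33. Its stage means were 15.3 at S36, 15.3 at S40 and 15.2 at S45, although S36 replicate 2 and S45 replicates 2 and 3 were about 2 times the first replicate of their stage.

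In 10 members, 12.7%, the S45 mean was at least 2 times both the S36 and the S40 mean, against 15.7% of the reference group. Their S45 means were 2.26 to 5.22 times those of S36 and 2.05 to 4.02 times those of S40. Cluster-199519.131082 had the largest ratio to S36, with 5.23, 6.34 and 8.40 FPKM at S36, 11.5, 9.51 and 10.02 at S40, 2.45, 0.36 and 1.46 at S43 and 34.7, 35.1 and 34.4 at S45. The S45 libraries were nearly equal and above all others. Its log2 difference between S45 and S36 was 2.24 ± 0.46 SE, which missed the threshold (limma adjusted p = 0.056). The limma adjusted p was 0.014 to 0.36 over 23 alternatives, and the unigene passed in 6.

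Cluster-199519.92163, whose libraries are given above, had a log2 difference of 2.15 ± 0.47 SE (limma adjusted p = 0.063, 0.016 to 0.35 over 23 alternatives, passing in 4). Cluster-199519.99997 had 7.96, 10.1 and 7.78 FPKM at S36, 7.28, 17.8 and 8.19 at S40, 0.78, 0 and 2.46 at S43 and 32.9, 51.7 and 61.0 at S45. Its S45 libraries were all above its highest S40 value. Its log2 difference was 2.21 ± 0.58 SE (limma adjusted p = 0.094, 0.030 to 0.37 over 23 alternatives, passing in 2). With S45 replicates 2 and 3 as separate samples limma called 3 members higher at S45 than at S36, and these 3 unigenes were the ones called. Without S43 replicate 3 the same 3 were called. The shares of all tested unigenes and of the reference group called in these 2 settings are not given.

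The other 25 members met neither description, and in 24 of them S45 had the highest mean. Over all members S45 had the highest mean in 51, 64.6%, against 62.3% of the reference group. These means are unscaled. After median-ratio scaling the members' median FPKM was 9.47 to 12.2 in the S45 libraries and 9.94 to 15.7 in those of S36 and S40. The exception among the 25 was Cluster-199519.103651. It had 14.8, 18.0 and 18.2 FPKM at S36, 19.5, 24.3 and 36.9 at S40, 3.88, 2.76 and 1.63 at S43 and 8.40, 11.1 and 10.1 at S45. Its S45 libraries lay below all S36 and S40 libraries and above all S43 libraries. The S45 mean was 0.354 times the S40 mean, the lowest such ratio of the members (log2 difference -1.37 ± 0.44 SE, limma adjusted p = 0.19, 0.10 to 0.69 over 23 alternatives).

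Cluster-199519.88739 had the lowest ratio of S40 to S36 mean of the members, 0.283, through 1 S36 library. It had 14.0, 57.4 and 9.06 FPKM at S36, 6.67, 10.9 and 5.17 at S40, 1.02, 0 and 1.23 at S43 and 30.9, 29.3 and 32.1 at S45. The S36 mean of 26.8 ± 26.6 (SD, n = 3) rests on replicate 2. Its S45 mean was 4.06 times its S40 mean, the highest such ratio of the members, and this ratio does not involve S36. The log2 difference between S45 and S40 was 1.94 ± 0.70 SE (limma adjusted p = 0.23, 0.11 to 0.69 over 23 alternatives).

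Within S36, replicate 2 was the highest of the S36 libraries for 47 members, 59.5%, against 24.2% of the reference group. It was the lowest of all 9 libraries outside S43 for 2 members, whereas it was the lowest in 22.8% of the reference group. The rule used the lowest value over these 9 libraries, so shares of this kind are partly set by the choice of members. S40 replicate 2 was the highest of the S40 libraries for 47 members as well, 59.5%, against 58.2% of the reference group. Across the 9 libraries outside S43, the median Pearson correlation of log2(FPKM + 1) over the 3081 pairs of members was 0.29. In 10.9% of pairs it was over 0.8 and in 27.8% under 0. These correlations rest on 9 libraries that share scaling, 2 of which were nearly the same, and describe these libraries only. With the members' median profile, which these same members made up, 35 members correlated at over 0.7 and 13 at under 0. Values of the reference group for these correlations are not given.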

How the data were processed

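Messenger RNA of dorsal muscle was sequenced in 12 libraries, 3 at each of 4 stages. Stage and replicate were read from sample titles. The authors deposited FPKM values, per the labels, which the table holds to 2 decimals. How reads were assembled, aligned and counted is not given in the sources used here. Depth is unknown, so no counting interval is given. The series calls the libraries biological replicates without naming animals, so p-values measure a spread between libraries that may be technical. In the main fit that spread was taken over all 4 stages, S43 included, also for contrasts without S43. The members and lists were chosen with earlier results of these data known.

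Unigenes with at least 1 FPKM in at least 3 of 12 libraries, 123813 in all, were fitted with limma 3.58.1 in R 4.3.3 with data.table (version 1.17.8) on the log2(FPKM + 1) scale, with a term for stage alone, a variance trend and 11 samples, since S45 replicates 2 and 3 entered as their mean. These fold changes understate those of low unigenes. The fit was run on simulated data with known changes. That simulation gave each unigene the same spread in all stages, unlike these data, so it does not show how the tests perform here. Python 3.11.15, numpy 2.4.6, pandas 2.3.3 and matplotlib 3.10.9 were used for summaries and figures. Alternatives covered pseudocounts, filters, scaling, variance models, blocks, left-out libraries and the limits of the rule.

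Unigenes were named by these rules: the highest means outside S43, the largest trough ratios, those nearest each limit, and those called in a contrast, at most 2 per direction. None of the members was at 0 throughout S43 or called, so those parts of the rule named none. A further 6 members were added after their values were seen.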

Additional observations from a re-analysis of the deposited data

How the results depend on the processing

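Of the alternatives for the rule, the number of unigenes was 48 with median-ratio scaling, 523 with a floor of 1 FPKM, 18 with a floor of 10, 181 with a ratio of 1.5 and 15 with a ratio of 3. It ranged from 80 to 416 with 1 library left out, and was 451 without both S43 replicate 3 and S45 replicate 1, a setting chosen after seeing the data. Between S45 and S36, 3 members were called with S45 replicates 2 and 3 separate, 2 with the replicate block in that fit, 2 with a mean FPKM of at least 5 as the filter, and 0 to 3 with 1 library left out (1, 1 and 3 without S43 replicates 1, 2 and 3). In the other 18 of 24 alternatives none was called, and none was called for S40 against S36 or S45 against S40 in any of 24. The shares of all tested unigenes called in these alternatives are not given. Of 18 same-numbered pairs of libraries, 1 had a correlation of deviations from the stage means over 0.1 (S36 and S40 replicate 2, 0.12). The lowest correlation, larger in size, was -0.23 (S36 and S43 replicate 2). Differently numbered pairs were not compared, so whether replicate numbers pair the libraries was not settled. The members' median log2 difference changed sign at -0.22 and -0.29 (S45 against S36) and at -0.12 and -0.24 (S45 against S40) with median-ratio scaling and quantile normalization, and moved by less than the replicate spread of 0.23 in the other 20 alternatives of each. The medians of the reference group in these settings are not given, and the cause of the change was not tested. The median for S40 against S36 ran from -0.07 to 0.18 over 22 alternatives. Most members sat between 5 and 10 FPKM at their lowest outside S43 and under 5 at S43, and 1 S45 sample is the mean of 2 libraries.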
